A study of Mus musculus with 61 samples.

Results

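The 37 genes described here are genes of B-cell identity and antigen presentation, taken by symbol from the 24421 genes of the count tables. By textbook function, 7 belong to the B-cell receptor complex and its signalling, 3 belong to the TNF receptor family and 5 are transcription factors. Another 8 serve the MHC class II pathway, and Mzb1 is a chaperone of immunoglobulin secretion. The other 13 are listed as B-cell surface receptors, although Fcrla, Vpreb3 and Ly86 among them do not encode surface receptors themselves. All 37 had at least 10 reads in each of the 3 experiments and were tested in each of them. The rule used symbols and no measured value.

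B cells recognise antigen through surface immunoglobulin, whose signal passes through CD79A and CD79B to kinases and adaptors such as BLK, BTK and BLNK. Coreceptors tune that signal: CD21, encoded by Cr2, lowers its threshold, while CD22, CD72 and the Fc receptor FCGR2B restrain it. B cells also take up antigen and display its peptides on MHC class II molecules, which the invariant chain CD74 accompanies through the cell, which H2-DM loads with peptide and H2-O restrains, and whose genes the coactivator CIITA switches on. In spleen, follicular and marginal zone B cells carry most of these transcripts, whereas mouse T cells are not known to make class II molecules in quantity.

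The study asked how the substitutions Y665F and Y665H in the SH2 domain of STAT5B, a transcription factor that cytokines activate, change immune cells. All mice were on a C57BL/6 background and 2 months old. Spleen RNA gave 4 WT, 5 STAT5B-Y665H and 7 STAT5B-Y665F libraries. The mutant mice carried the substitution in their own Stat5b gene, made by base editing (Y665H) or by a CRISPR knock-in (Y665F). T cells isolated from spleen were cultured for 24 h with IL-2 and IL-7 (4 WT, 4 Y665H and 4 Y665F libraries). Y665H replicate 4 held the reads of replicates 1 and 2 added together, so it was no independent library. It entered the T-cell fits as one, and overlaps given for Y665H T cells count it. All T-cell groups shared the estimate of spread. Standard errors and p-values of every T-cell comparison therefore count it, also those without Y665H. For Y665F, 3 further libraries had no interleukin. The study calls such T cells unstimulated and does not state whether they were cultured. Its steady-state comparison of Y665F with Y665H is described as T cells taken right after isolation and also as splenocytes. The group sizes there, 7 and 5, are those of the spleen libraries. CD4+ T cells from pooled spleens and lymph nodes of mice whose Stat5a and Stat5b are floxed and deleted by Cd4-Cre, here called null, were activated, transduced with a retroviral vector and sorted after 48 h with IL-2. The vector was empty or carried STAT5B, N642H, Y665F or Y665H, with 3 libraries each, and a parallel set was made in cells titled WT, although its genotype label also reads floxed. A vector-driven STAT5B is not under the gene's own control, and null and control groups share activation, transduction and the vector backbone. No label says that libraries of a group came from separate animals, so p-values measure the spread between these libraries.

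Reads assigned to genes numbered 24203179 to 43330536 per spleen library, 2017012 to 27394249 per splenic T-cell library and 18825994 to 49850689 per CD4+ library. Levels are given as CPM, the reads of a gene scaled to a common library size after TMM scaling within an experiment. Tests used the quasi-likelihood method of edgeR, p-values were adjusted over all genes of an experiment by Benjamini-Hochberg, and a gene is called where the adjusted p is under 0.05 and the change is over 2-fold. In the CD4+ libraries Stat5a was between 1.68 and 16.1 CPM of the library total in the 15 null libraries and between 87.6 and 183 in the 15 titled WT. The splenic T-cell libraries expressed Cd3e, a subunit of the T-cell receptor complex, at 77.5 to 191 CPM. The lowest, Y665F replicate 3 with interleukins, lay within the 75.9 to 89.5 CPM of the Y665F spleen libraries, which were scaled separately. All other T-cell libraries were at 129 CPM or more. In spleen, Y665H replicate 1 stood apart from the other 4: its summed erythroid marker level was 1293 CPM, whereas the group median was 6687, and its summed neutrophil marker level was 138 CPM against a median of 1169. Among T cells, Y665F replicates 3 and 4 with interleukins stood apart in B-cell genes. Results that rest on these libraries are given with and without them.

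Promoter sequence was read for the members because class II genes are known to share a module of elements, here looked for as a Y box (TGATTGG) that follows an X2-type site (TGANG) by 10 to 30 bases. RefSeq windows of GRCm38.p6, from 250 bases before to 50 bases after the start, were found for 28 of the 37 members. The Y box alone was present in 7.82% of 32851 windows on either strand, and the pair in 0.788% of them. The pair was found in 4 members, H2-Aa, H2-Eb1, H2-DMb2 and H2-Ob, which are 4 of the 5 class II pathway members with a window. The stretches below show the X2-type site and the Y box in capitals, 5′ to 3′ on the gene's strand; the X2-type site overlaps no base of the Y box. They lie at chr17:34287855-34287909 (minus strand), chr17:34305772-34305824, chr17:34145122-34145175 and chr17:34238814-34238864 (plus strand).
H2-Aa: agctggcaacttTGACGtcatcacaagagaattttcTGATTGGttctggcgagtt
H2-Eb1: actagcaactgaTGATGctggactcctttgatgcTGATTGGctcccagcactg
H2-DMb2: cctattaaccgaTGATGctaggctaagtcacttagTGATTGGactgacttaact
H2-Ob: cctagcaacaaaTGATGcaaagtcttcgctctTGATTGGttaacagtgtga
In H2-Eb1 an overlapping X2-type site further upstream also met the rule. The pair and its spacing were set after the windows had been looked at. In all 8 motifs were searched, both strands: the octamer ATTTGCAT (1.74% of windows; Blnk and Vpreb3), ATTGG (37.4%; 11 members), TTCNNNGAA (8.3%; H2-DMb2), an EBF-type palindrome (0.904%; Cd22), GAGGAAGT (3.2%; Cd72 and Cd37) and AGATAAG (3.04%; H2-DMa) beside the 2 above. A match describes these letters only. ATTGG lies within every Y box.

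In Y665F spleen 4 of the 13 genes listed as B-cell surface receptors fell against WT by the adjusted p, none of them by 2-fold. Cr2, the complement receptor CD21, was the gene with the lowest fold change: the 4 WT libraries stood at 1544, 1495, 1170 and 1253 CPM and the 7 Y665F libraries between 723 and 903 CPM, with a median of 807. All Y665F libraries lay below all WT libraries. The log2 fold change was -0.77 ± 0.08 (SE), 0.586 of the WT level, with an adjusted p of 3.8e-05. In Y665H spleen Cr2 was at 1177, 986, 930, 1071 and 1075 CPM, and the highest of these libraries lay just above the lowest of the WT group. Its log2 fold change from WT was -0.38 ± 0.09 (adjusted p = 0.00722). The direct comparison of the genotypes gave -0.39 ± 0.08 for Y665F against Y665H (adjusted p = 0.00171), and no Y665F library overlapped a Y665H library. For Cr2 and the other members, fewer cells carrying a transcript and less of it per cell cannot be told apart in spleen RNA from mixed cell types.

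**Figure D1:**
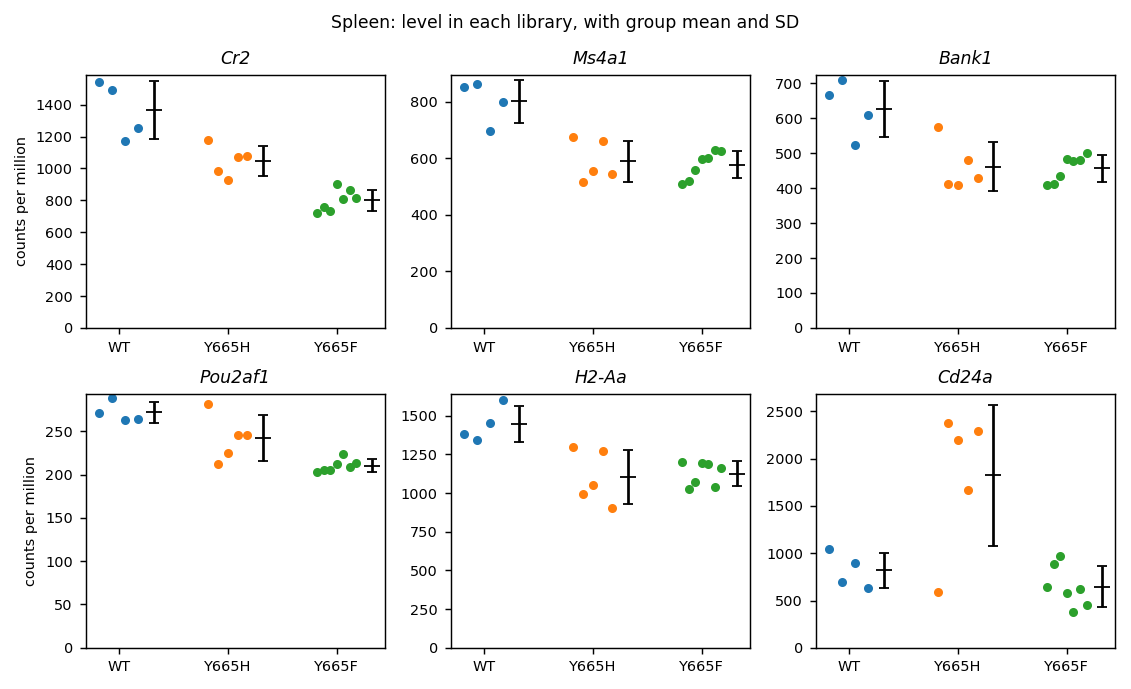
Level of 6 genes (CPM, vertical axis from 0) in each spleen library by genotype; points are libraries and the black mark gives the group mean with its SD. Cr2 in the 7 Y665F libraries lies between 723 and 903 CPM, below all WT libraries, and Cd24a is at 588 CPM in 1 Y665H library and at 1671 CPM or more in the other 4.

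Across the 37 genes, 11 were lower in Y665F spleen at an adjusted p under 0.05 and none was higher, and no member was called at 2-fold, in a comparison where 1.2% of all genes were. Of all genes tested, 6.59% were lower and 5.63% higher by the adjusted p. The median log2 fold change of the members was -0.19, and that of all genes was 0.00. In Y665H spleen 13 members were lower and 2 higher by the adjusted p, with a member median of -0.19, in a comparison where 9.05% of all genes were lower, 10.7% higher and 4.37% passed the 2-fold call. The member called at 2-fold was Cd24a. By the adjusted p, the 8 genes Bank1, Btk, Cd79b, Cr2, H2-Aa, Ly86, Ms4a1 and Swap70 were lower in both mutants. They were 61.5% of the Y665H list and 72.7% of the Y665F list. Both lists were compared with the same 4 WT libraries, and the overlap over all genes is not given. These shares therefore cannot be read as particular to the members.

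**Figure D2:**
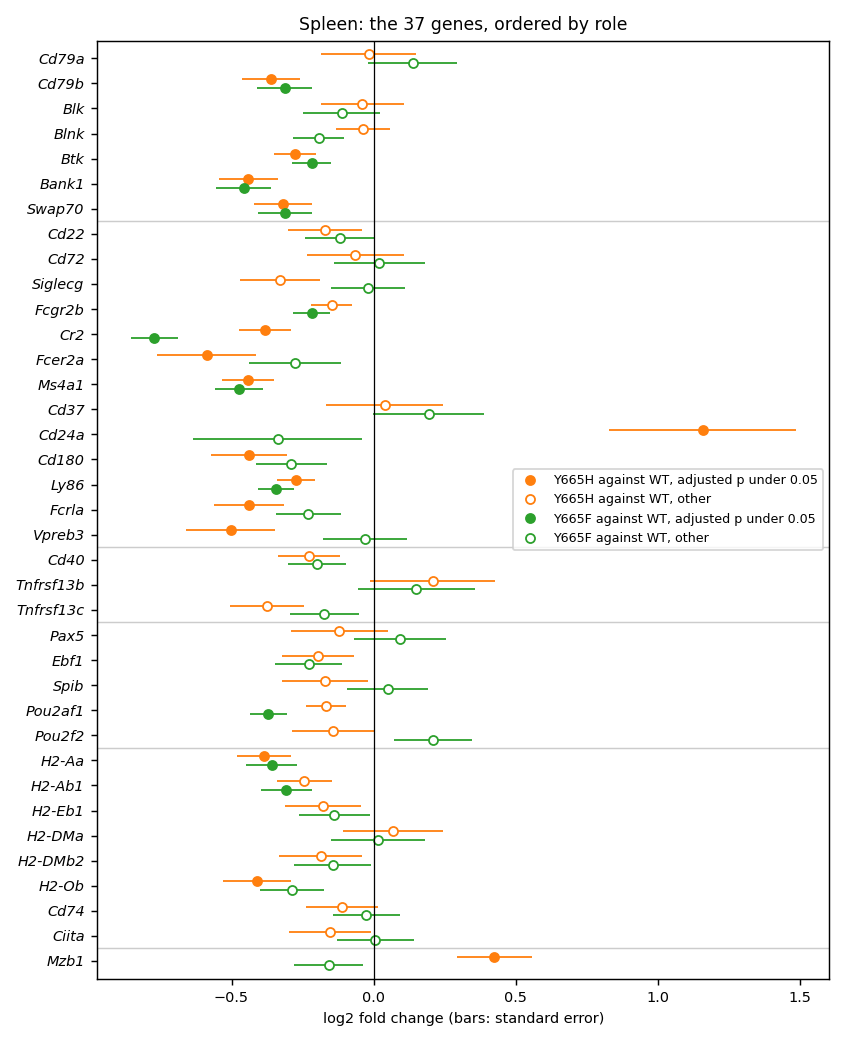
Log2 fold change of the 37 genes against WT spleen (horizontal axis, bars are standard errors) for Y665H and Y665F, ordered by role; filled points pass an adjusted p of 0.05. Of the filled Y665F points all 11 lie below 0, the lowest being Cr2 at -0.77, and Cd24a in Y665H lies farthest to the right at 1.16.

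Among genes of the receptor complex and its signalling, 4 of 7 were lower in each mutant. Bank1, which encodes a scaffold of B-cell receptor signalling, was at 666, 709, 522 and 609 CPM in WT, between 410 and 575 in Y665H and between 408 and 500 in Y665F. Only the Y665F libraries all lay below WT. The log2 fold changes were -0.44 ± 0.10 in Y665H (adjusted p = 0.0071) and -0.46 ± 0.10 in Y665F (adjusted p = 0.00609). Cd79b, the signal-transducing partner of CD79A, had log2 fold changes of -0.36 ± 0.10 and -0.31 ± 0.10, with adjusted p of 0.0199 and 0.0418. Cd79a itself had -0.02 ± 0.17 in Y665H and did not pass the test in either mutant. Btk and Swap70 also fell in both by the adjusted p, and Blk and Blnk did not pass. The fall of Btk lost the threshold in 4 of 18 alternative fits in Y665H and in 15 of 19 in Y665F. For Swap70 this was 9 of 18 and 8 of 19, and for Cd79b 3 of 18 and 10 of 19.

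Among the 13 genes listed as surface receptors, 7 fell in Y665H and 4 in Y665F. These counts include Ly86 in both mutants and Fcrla and Vpreb3 in Y665H, which are not surface receptors themselves. Ms4a1, which encodes CD20, stood at 851, 863, 695 and 798 CPM in WT, between 517 and 676 in Y665H and between 511 and 631 in Y665F. Neither mutant group overlapped WT. The log2 fold changes were -0.44 ± 0.09 (adjusted p = 0.00368) and -0.47 ± 0.09 (adjusted p = 0.00205). Fcer2a, which encodes the low-affinity IgE receptor CD23 of follicular B cells, had the lowest fold change of the members in Y665H, -0.59 ± 0.17 (adjusted p = 0.0241). Its libraries stood at 216, 269, 208 and 265 CPM in WT and at 243, 124, 134, 169 and 128 CPM in Y665H. The library at 243 CPM, Y665H replicate 1, lay inside the WT range and the other 4 below it. In Y665F, Fcer2a lay between 164 and 249 CPM, with -0.28 ± 0.16 (adjusted p = 0.279). Vpreb3, linked to B-cell receptor assembly, was at 10.6, 14.4, 13.8 and 15.7 CPM in WT, at 12.9, 7.47, 8.70, 11.3 and 7.86 in Y665H and between 11.4 and 16.2 in Y665F. It fell in Y665H by 0.50 ± 0.16 (adjusted p = 0.0315) and was higher in Y665F than in Y665H by 0.47 ± 0.14 (adjusted p = 0.0187).

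Cd24a, which encodes a heat-stable antigen carried by immature B cells but also by erythroid precursors and neutrophils, moved the other way. It was at 1045, 697, 896 and 636 CPM in WT, at 588, 2383, 2200, 1671 and 2291 CPM in Y665H and between 383 and 969 CPM in Y665F. One Y665H library was below all WT libraries and the other 4 above them. Its log2 fold change was 1.16 ± 0.33 in Y665H (2.23-fold, adjusted p = 0.0189), and -1.50 ± 0.28 for Y665F against Y665H (adjusted p = 0.000935). In Y665H spleen 8 of 10 tested erythroid markers and 7 of 9 neutrophil markers rose at 2-fold, with medians of 1.92 and 1.88. Their summed levels in that group ranged from 1293 to 7623 and from 138 to 1575 CPM, and were lowest in the library in which Cd24a was lowest. Their part in the Cd24a result was not tested.

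None of the 3 TNF receptor family members passed in spleen. Tnfrsf13c, the receptor for the survival factor BAFF, was the most abundant of them, at 161, 190, 135 and 169 CPM in WT, between 96.6 and 172 in Y665H and between 121 and 157 in Y665F. All groups overlapped.

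Of the 5 transcription factors, Pou2af1, the B-cell coactivator OBF-1, fell in Y665F. It was at 271, 288, 263 and 264 CPM in WT and between 203 and 224 CPM in Y665F, without overlap, with a log2 fold change of -0.37 ± 0.06 (adjusted p = 0.00164). In Y665H it was at 282, 212, 224, 246 and 246 CPM, which gave -0.17 ± 0.07 (adjusted p = 0.103). The direct comparison was -0.20 ± 0.06 (adjusted p = 0.0199). Pou2f2, the OCT-2 partner of OBF-1, was at 48.7, 66.2, 48.8 and 49.4 CPM in WT, at 69.7, 43.1, 37.6, 45.6 and 45.3 in Y665H and between 52.6 and 71.7 in Y665F. It had the highest fold change of the members in Y665F, 0.21 ± 0.14, and did not pass (adjusted p = 0.334). Pax5, Ebf1 and Spib did not pass.

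MHC class II genes fell in part. H2-Aa was at 1382, 1342, 1453 and 1604 CPM in WT, at 1298, 995, 1055, 1275 and 907 CPM in Y665H and between 1024 and 1203 CPM in Y665F, and neither mutant group overlapped WT. It had log2 fold changes of -0.39 ± 0.10 (adjusted p = 0.00926) and -0.36 ± 0.09 (adjusted p = 0.0154). H2-Ab1 fell in Y665F (-0.31 ± 0.09), and H2-Ob in Y665H (-0.41 ± 0.12). Cd74, the most abundant of the group, was at 1728, 1770, 2388 and 2524 CPM in WT, at 2401, 1793, 1829, 2097 and 1604 in Y665H and between 1773 and 2369 in Y665F, and did not pass in either. Ciita, H2-Eb1, H2-DMa and H2-DMb2 did not pass, the last a gene whose reads may be shared with its near copy H2-DMb1. As a description, the log2 ratio of summed class II (H2-Aa, H2-Ab1, H2-Eb1 and Cd74) to summed B-cell surface counts (Cd79a, Cd79b, Ms4a1 and Cd22) was 1.25 ± 0.21 (SD, n = 4) in WT, 1.34 ± 0.10 (n = 5) in Y665H and 1.35 ± 0.14 (n = 7) in Y665F. The differences from WT, 0.09 and 0.10, were smaller than the spread within groups.

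Mzb1, the chaperone of antibody secretion, rose in Y665H by 0.43 ± 0.13 (adjusted p = 0.0297) and was lower in Y665F than in Y665H by 0.58 ± 0.11 (adjusted p = 0.00126). Its libraries stood at 35.5, 38.1, 57.8 and 50.7 CPM in WT, 59.4, 59.8, 66.8, 70.9 and 48.7 in Y665H and between 36.7 and 44.5 in Y665F. Of 8 plasma cell markers, 5 rose in Y665H by the adjusted p, with a median of 0.49 over the list. For Y665F against Y665H 1 member rose and 4 fell by the adjusted p, where 10.5% of all genes were higher, 15.3% lower and 5.28% passed at 2-fold.

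The spleen counts depended on which libraries entered. Without Y665H replicate 1, 19 members fell and 2 rose against WT, and 8 members were higher and 4 lower in Y665F than in Y665H. With the 2 groups fitted alone, 2 fell and 1 rose in Y665H. Without Y665F replicate 1, 2 or 3 or WT replicate 1, 2 or 4, 6 or 7 members fell in Y665F, and without WT replicate 1 or 2 or Y665H replicate 2 or 3, 6 to 8 fell in Y665H. The share of all genes passing in these refits is not given, so the shifts cannot be read as particular to the members. The Cd24a call ended without WT replicate 2 or 4 (adjusted p = 0.0677 and 0.0593). Bank1 and Ms4a1 in both mutants, and Cr2, Ly86 and Pou2af1 in Y665F, passed in all alternatives. Among other cell types, 7 of 13 T-cell markers fell in Y665H (list median -0.47) and 9 of 13 rose in Y665F (list median 0.60). Of 6 NK cell markers 5 fell in Y665H (list median -1.07), and of 14 dendritic and macrophage markers 5 fell in Y665H and 4 in Y665F. Neutrophil markers rose in Y665F for 5 of 9. Of 30 other B-cell genes, 12 fell in Y665H, and 8 fell and 1 rose in Y665F. Their part in the member results was not tested.

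Splenic T-cell libraries held B-cell transcripts at low and unequal levels. Each library's level of a member was set beside the mean WT spleen level of that gene, in CPM of the library total. The median over the 37 members was between 0.876 and 2.85% in the 4 WT libraries, between 0.708 and 1.42% in the 4 Y665H libraries and between 1.58 and 2.11% in the 3 Y665F libraries without interleukin. In the Y665F libraries with interleukins it was 1.32, 1.41, 19.6 and 7.19%. Replicates 3 and 4 of that group were therefore the highest of all 15. The spleen and T-cell tables were prepared separately, so the percentages set levels side by side and carry no test.

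**Figure D3:**
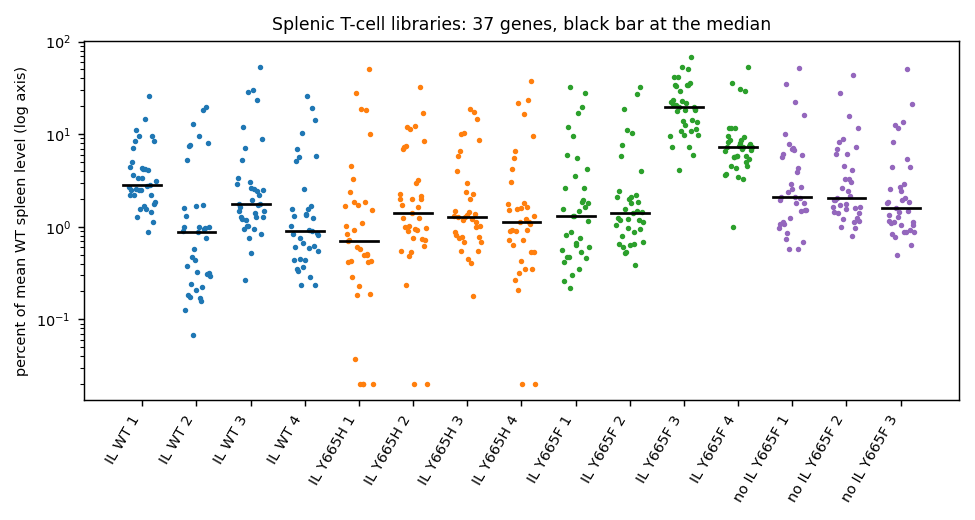
Level of each of the 37 genes in each splenic T-cell library as a percent of its mean level in WT spleen (vertical log axis; genes without a read are drawn at the bottom), one point per gene; the black bar is the library's median. The median is 19.6% in Y665F replicate 3 and 7.19% in replicate 4, against 2.85% or less in the other 13 libraries.

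Ms4a1 was at 23.4, 0.602, 9.35 and 1.97 CPM in the 4 WT libraries and at 2.62, 4.89, 209 and 43.9 CPM in the Y665F libraries with interleukins. Y665F replicate 1 and 2 lay inside the WT range, and 3 and 4 above it. The same order was seen for Cd79b, at 8.16, 11.6, 95.8 and 31.8 CPM, and for Pax5, the factor that commits cells to the B lineage, at 0.396, 0.779, 47 and 7.21 CPM. In replicate 3 the summed T-cell marker level was 1308 CPM, the lowest of the 15 libraries, and the erythroid marker sum was 1409 CPM, against 309 or less in the other 3 libraries of its group. Replicate 3 was also among the shallower libraries, at 2851451 reads.

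In Y665F against WT T cells with interleukins 5 members were called, all higher, and the member median was 1.61 against 0.07 for all genes, in a comparison where 1.15% of all genes were higher and 0.381% lower. They were Fcgr2b, Cd24a, Cd40, Pax5 and H2-DMb2. Between the same groups 5 of 9 neutrophil and 2 of 8 erythroid markers were called higher and 2 of 13 T-cell markers lower, and the neutrophil sum was between 76.1 and 312 CPM in Y665F against 17.7 CPM or less in WT. Their part in the member calls was not tested. Without Y665F replicates 3 and 4 none was called and the median was -0.31. Without replicate 3 alone 1 was called, Fcgr2b, which was also the call left without WT replicate 2 or 4. Without WT replicate 3, 3 were called, without Y665F replicate 4, 2, without WT replicate 1, 16, and without Y665F replicate 1 or 2, 22 or 15. The share of all genes called in these refits is not given here. Cd24a was at 14.8, 5.27, 9.64 and 3.15 CPM in WT and at 11.5, 11.3, 385 and 34.6 in Y665F, and H2-DMb2 at 2.08, 0.552, 1.52 and 0.393 in WT and at 0.791, 1.70, 25.6 and 8.34 in Y665F. In each of the 2, replicates 3 and 4 were above WT and the other Y665F libraries inside its range. In Y665H against WT no member passed edgeR's test, where 0.0269% of all genes were called higher and 0.0448% lower. At an unadjusted p under 0.05, 2 members were lower and none higher, and DESeq2 called none. The member median was -0.49 and that of all genes -0.11. Among members with a mean of at least 1 CPM, Siglecg had the lowest fold change there, -1.45 ± 0.96, from 6.07, 0.401, 2.22 and 0.721 CPM in WT to 0.571, 0.486, 1.25 and 0.548 in Y665H, and Btk the highest, 0.52 ± 0.61, from 9.65, 2.46, 3.13 and 2.30 CPM to 1.14, 11.7, 7.58 and 5.12.

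Fcgr2b, the inhibitory Fc receptor also made by myeloid cells, did not follow the order of the B-cell genes. It was at 10.3, 7.03, 6.67 and 4.85 CPM in WT, at 2.57, 9.72, 9.24 and 5.3 in Y665H, at 28.3, 17.3, 29.9 and 27.8 in Y665F with interleukins, and at 22.2, 20.7 and 10.2 in Y665F without. All Y665F libraries with interleukins lay above every WT and Y665H library. The log2 fold changes were 1.84 ± 0.34 against WT (adjusted p = 0.00613) and 1.94 ± 0.35 against Y665H (adjusted p = 0.00161). Without replicates 3 and 4 the second stayed past the threshold. The first then had a log2 fold change of 1.67 with an adjusted p of 0.142, and it lay between 1.67 and 2.05 in the 16 alternatives run. The dendritic and macrophage marker sum was between 148 and 174 CPM in WT and between 108 and 273 CPM in Y665F with interleukins. Between these groups 0 of 14 of those markers were called, whereas 5 of 9 neutrophil markers were called higher in Y665F. The neutrophil marker sum was 17.7 CPM or less in WT and between 76.1 and 312 CPM in Y665F with interleukins. It was between 60.8 and 199.6 CPM in Y665F without interleukin. In Y665H, where Fcgr2b was not above the WT range, it was between 23.98 and 78.75 CPM. The part of either list in the Fcgr2b result was not tested. Cd40, a receptor for help from T cells, was at 0.998, 0.502, 1.15 and 0.721 CPM in WT and at 3.02, 1.2, 8.23 and 3.96 CPM in Y665F, without overlap. Its log2 fold change was 2.19 ± 0.54 (adjusted p = 0.0364).

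**Figure D4:**
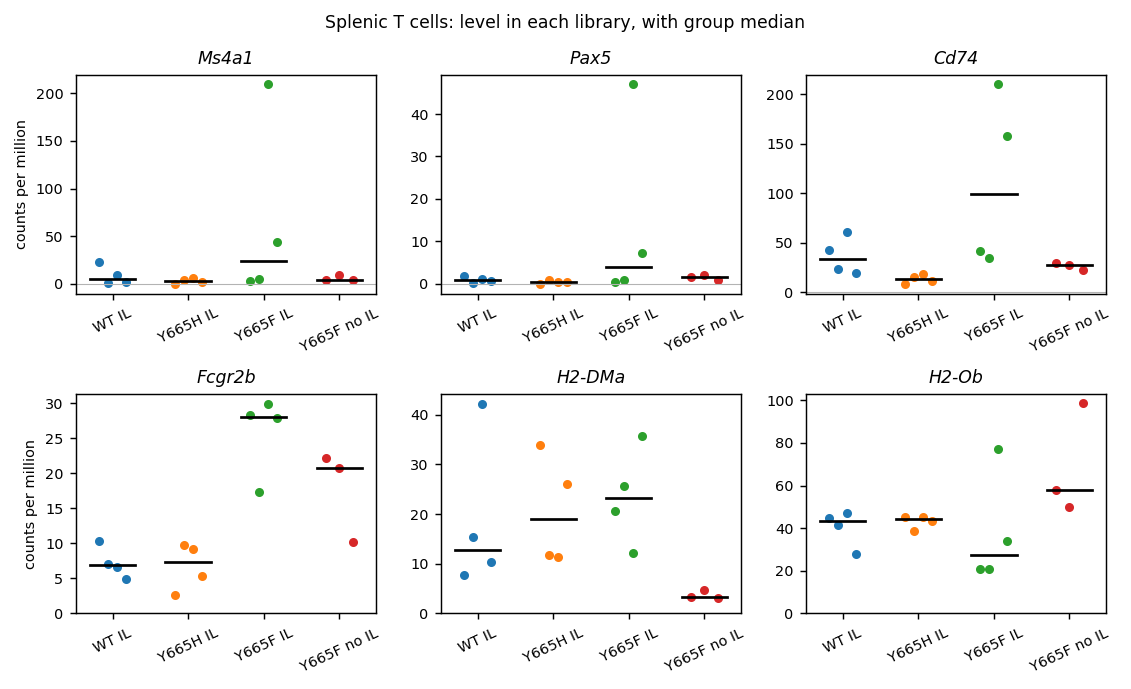
Level of 6 genes (CPM, vertical axis from 0) in each splenic T-cell library; points are libraries and black lines are group medians. Ms4a1 and Pax5 are high in 2 Y665F libraries with interleukins, Fcgr2b is at 17.3 CPM or more in all 4 of them, and H2-DMa is at 4.74 CPM or less in all 3 libraries without interleukin.

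Against Y665H, 18 members were higher in Y665F T cells and none was lower, with a median of 2.08 against 0.13 for all genes, where 3.43% of all genes were higher and 1.35% lower. This fit counted Y665H replicate 4, the sum of replicates 1 and 2, as a separate library, and without it 11 members were called. Of other lists, 3 of 5 NK cell, 2 of 8 erythroid and 2 of 9 neutrophil markers were called higher and 1 of 13 T-cell markers lower, with list medians of 1.08, 2.03, 1.37 and -0.56, and their part in the member calls was not tested. MHC class II genes made up 6 of the 18. Cd74 was at 8.56, 15.1, 18.2 and 11.1 CPM in Y665H and at 41.1, 34.8, 210 and 158 CPM in Y665F, without overlap, with a log2 fold change of 3.04 ± 0.48 (adjusted p = 0.000423). In WT it was at 42.9, 23.2, 60.7 and 19 CPM, which overlapped Y665F. H2-Ab1 was at 3.71, 15.1, 9.52 and 8.04 CPM in Y665H and at 21.5, 15.8, 94.9 and 42.5 in Y665F, higher by 2.27 ± 0.46. H2-Eb1 was at 3.14, 5.83, 8.90 and 4.20 CPM in Y665H and at 14.1, 10.6, 41.8 and 35.2 in Y665F, higher by 2.12 ± 0.44. Both were without overlap. Swap70, the most abundant signalling member, was between 12 and 37.9 CPM in Y665H and at 33.6, 34.4, 156 and 60.1 in Y665F, and was higher by 1.41 ± 0.39 (adjusted p = 0.0321). Tnfrsf13c and Mzb1 did not pass; they reached 48.8 and 3.96 CPM in replicate 3 and 4.86 CPM and 0.347 CPM at most in Y665H. Without replicates 3 and 4, Cd74 and Fcgr2b were higher and H2-Ob, an inhibitor of peptide loading, was lower. Without replicate 3 alone 5 were called, Cd40, Cd74, Fcgr2b, H2-Ab1 and H2-Eb1. Without Y665H replicate 1 or 4, 11 were called. For these refits the share of all genes called is not given, so the shifts cannot be read as particular to the members. Cd37, a tetraspanin, had the lowest fold change of the members, -0.69 ± 0.34, and did not pass; it was at 36.0, 15.1, 15.6 and 28.7 CPM in Y665H and at 14.0, 16.7, 12.8 and 15.3 in Y665F.

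Y665F T cells with interleukins were compared with those without. Whether the cells without interleukins were cultured is not stated, so interleukins and the culture itself cannot be told apart. The test called 3 members, all higher and all of the class II pathway, with a median of 1.65 over the 37 and -0.13 over all genes, where 2.27% of all genes were higher and 0.695% lower. H2-DMa, a chain of the peptide loader, was at 20.6, 25.7, 12.2 and 35.6 CPM with interleukins and at 3.21, 4.74 and 3.08 CPM without, with no overlap. Its log2 fold change was 2.69 ± 0.52 (6.45-fold, adjusted p = 0.00249), and it stayed past the threshold in all alternatives, between 2.42 and 2.92. In the same comparison 3 of 5 NK cell, 2 of 8 plasma cell and 1 of 8 erythroid markers were called higher, and their part was not tested. With interleukins H2-DMa was at 7.73 to 42.1 CPM in WT and at 11.4 to 34 CPM in Y665H. Cd74 rose by 2.07 ± 0.49 (adjusted p = 0.015) and H2-Eb1 by 1.66 ± 0.46 (adjusted p = 0.0408). H2-Ob had the lowest value, -0.89 ± 0.34 (adjusted p = 0.17), from 58.1, 49.9 and 98.9 CPM without interleukin to 20.7, 20.9, 77.2 and 33.8 CPM with them. Without replicates 3 and 4, H2-DMa was higher and H2-Ob lower. Without replicate 4, or without any 1 of the libraries lacking interleukin, H2-DMa alone was called, and without replicate 1 or 2, 13 members were. Shares of all genes called in these refits are not given, so the shifts cannot be read as particular to the members.

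In the T-cell libraries the ratio of class II to B-cell surface counts varied between libraries. It was 1.63 ± 0.70 (SD, n = 4) in WT and 1.27 ± 0.16 (n = 4) in Y665H on the log2 scale. The Y665H value counts replicate 4, the sum of replicates 1 and 2. In Y665F with interleukins it was 2.81, 1.80, -0.07 and 1.18, and the lowest value was that of replicate 3, which had the highest CPM of the B-cell surface genes that form the denominator. Of the members 5 had a median over the 15 T-cell libraries above 10% of the WT spleen level: Pou2f2, H2-DMa, Tnfrsf13b, Fcgr2b and Cd37. Another 8 were under 1%, among them Ms4a1 at 0.536% and Cd22 at 0.829%.

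Sorted null CD4+ T cells held little B-cell RNA. Of the 37 genes 25 had a median under 1% of the WT spleen level over 15 libraries, and Ms4a1 did not exceed 0.0441%. Pou2f2 and Tnfrsf13b, by contrast, had medians of 179 and 163% of it, and Cd37, H2-DMa, Tnfrsf13c, Pou2af1 and Swap70 were at 66.9, 39.6, 35.2, 17.2 and 11%. Mzb1 was at 0.261 CPM or less in every library. Pou2f2 lay between 69.5 and 147 CPM in all 15 libraries, Cd37 between 73.3 and 125 and Swap70 between 39.2 and 71.6. Tnfrsf13c was between 25.8 and 86.6 CPM and Btk between 4.11 and 8.87.

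Pou2af1 and Bank1 were lower with N642H and with Y665F. Pou2af1 was at 101, 131 and 57.6 CPM with empty, 48.7, 66.6 and 45.3 with STAT5B, 31.9, 41.4 and 21 with N642H, 35.1, 42.5 and 26.5 with Y665F, and 92.3, 108 and 68.6 with Y665H. N642H and Y665F did not overlap the empty vector. The log2 fold changes from empty were -1.61 ± 0.28 (adjusted p = 0.001) and -1.47 ± 0.27 (adjusted p = 0.00238). With STAT5B it was -0.85 ± 0.27 (adjusted p = 0.123) and with Y665H -0.10 ± 0.27. Bank1 was at 3.72, 4.38 and 4.57 CPM with empty, 1.99, 2.43 and 1.8 with N642H and 1.16, 1.8 and 1.8 with Y665F, without overlap. It fell by 1.01 ± 0.25 (adjusted p = 0.0136) and by 1.41 ± 0.26 (adjusted p = 0.00219).

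**Figure D5:**
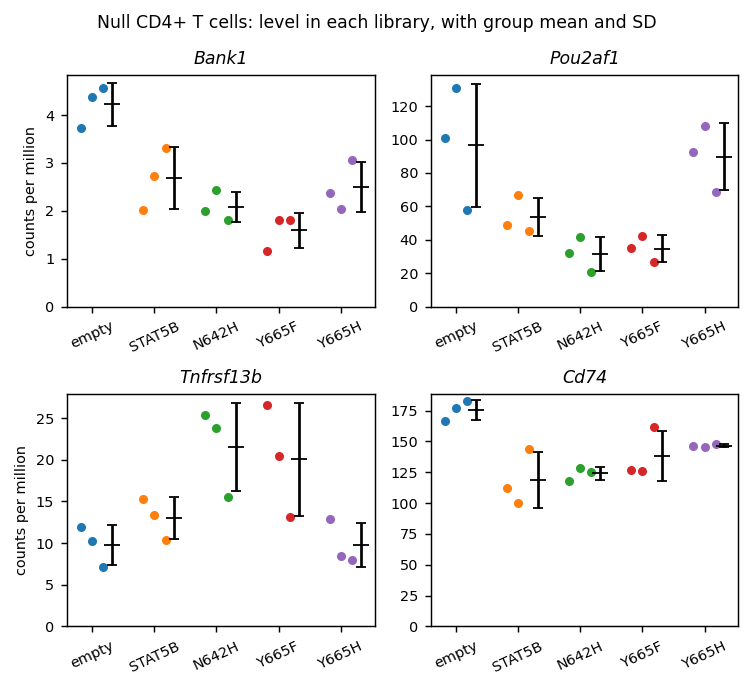
Level of 4 genes (CPM, vertical axis from 0) in null CD4+ T cells by vector; points are libraries and the black mark is the group mean with its SD. Pou2af1 and Bank1 are lower with N642H and Y665F than with the empty vector, and Tnfrsf13b is higher with both.

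Tnfrsf13b, which encodes TACI, a receptor for BAFF and APRIL, was at 11.9, 10.2 and 7.14 CPM with empty, 25.4, 23.8 and 15.5 with N642H and 26.6, 20.5 and 13.1 with Y665F. It rose by 1.15 ± 0.26 (adjusted p = 0.00771) and by 1.04 ± 0.26 (adjusted p = 0.0167), and neither group overlapped the empty vector. Ebf1, a factor of early B-cell development, was at 1.34, 1.27 and 1.75 CPM with empty and at 2.69, 2.81 and 3.37 with N642H, without overlap. It rose with N642H by 1.02 ± 0.30 (adjusted p = 0.0331). Cd74 was at 167, 177 and 183 CPM with empty and at 112, 99.8 and 144 with STAT5B, a fall of 0.57 ± 0.12 (adjusted p = 0.0281). It fell with N642H by 0.50 ± 0.12. H2-DMa fell with N642H by 0.53 ± 0.16 and with Y665F by 0.55 ± 0.16. Its falls lost the adjusted p threshold in 7 of 13 alternative fits with N642H and in 6 of 13 with Y665F. The rise of Ebf1 with N642H lost it in 5 of 13.

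By vector, N642H had 2 members higher and 2 lower at 2-fold, where 2.88% of all genes were called, and 2 higher and 4 lower by the adjusted p alone, where 11.6% were. Y665F had 1 higher and 2 lower at 2-fold, where 2.37% were called, and 1 and 3 by the adjusted p, where 9.58% were. STAT5B had none at 2-fold and 1 lower by the adjusted p, where 0.477 and 1.52% of all genes passed. Y665H had none by either rule, by edgeR or DESeq2, with 2 members higher and 4 lower at an unadjusted p under 0.05, where 0.0249% of all genes passed both rules. The fall of Cd74 with STAT5B ended without empty replicate 1 or 2 or STAT5B replicate 1 or 2. Without empty replicate 3 it was joined by Pou2af1, which then passed 2-fold. Without empty replicate 2 or 3 or N642H replicate 1, 2 members were called at 2-fold with N642H, and without empty replicate 2 or N642H replicate 1, 3 or 2 passed the adjusted p. Without Y665F replicate 3, 5 were called with Y665F and 7 passed the adjusted p, and without empty replicate 2 or Y665F replicate 1, 2 did. How many of all genes passed in these refits is not given, so the shifts cannot be read as particular to the members. For STAT5B the member median was -0.31 and that of all genes 0.00. N642H gave -0.53 and 0.01, Y665F gave -0.46 and -0.02, and Y665H gave 0.00 and 0.03. Of 13 T-cell markers 8 fell with N642H (list median -0.55) and 7 with Y665F (list median -0.49) by the adjusted p, and their part in the member values was not tested. With Y665H, among members with a mean of at least 1 CPM, the lowest fold change was that of Bank1, -0.76 ± 0.25, at 2.38, 2.03 and 3.06 CPM, and the highest that of H2-Ab1, 0.73 ± 0.45, at 48.5, 17.6 and 78.5 CPM against 32.5, 14.6 and 40.2 with empty. All vectors were compared with the same 3 libraries of empty vector, and whether the vectors differ from each other was not tested. The counts above take libraries as unpaired. A fit with replicate number as a block, given in the last section, had more members past the adjusted p with STAT5B, N642H and Y665F.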

How the data were processed

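Total RNA was sequenced as stranded, ribosomal RNA-depleted libraries. The authors trimmed the reads with Trimmomatic 0.36, aligned them to mm10 with STAR and counted reads per gene with HTSeq 0.9.1, and deposited 1 table of raw read counts per library; the strand setting and annotation are not given in the sources used here. Immunoglobulin constant-region genes were not analysed here. A withheld item is not reported here. Rows without a gene held 62.8 to 69.4% of the listed reads in spleen, 63.9 to 85.7% in splenic T cells and 28.4 to 36.9% in CD4+ cells, and stayed out of totals and tests.

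Counts were fitted per experiment (19418 genes in spleen, 22313 in splenic T cells and 20113 in null CD4+ cells, each with at least 10 reads over its libraries) with edgeR 4.0.16 in R 4.3.3, using TMM scaling, the quasi-likelihood test and 1 term per group; all groups of an experiment shared the estimate of spread. A call needed an adjusted p under 0.05 and a change over 2-fold. DESeq2 1.42.0 was the other tool. The script was tested on simulated data. Of 88 replicate pairs, none agreed within sampling noise (lowest chi-square per degree of freedom 3.54). A check by pairs cannot find a pooled library. T-cell Y665H replicate 4 had 5327354 reads, the sum of replicate 1 (3310342) and replicate 2 (2017012). Counts of genes such as Cd79b (17, 23 and 40 in replicates 1, 2 and 4), Btk (4, 24 and 28) and Lyz2 (16, 523 and 539) added up the same way. Values per library were named for the most abundant member of each role, for called members (up to 6 of lowest adjusted p per comparison) and for the highest and lowest fold changes among members of at least 1 CPM; library values of Ms4a1 and H2-Aa in spleen and of Cd79b in T cells were added after values were seen. The members and all gene lists were chosen with earlier results of these data known. Intervals are standard errors unless SD is named, and cover the spread between libraries.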

Additional observations from a re-analysis of the deposited data

Results flagged for a closer look

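In groups of 4 to 7 libraries, 9 of 84 sets of values of named members had 1 library whose gap to its neighbour exceeded Dixon's 95% critical value. Chance gives this in about 1 of 20 sets that are independent and chosen without regard to their values. Members were named partly for calls and extreme fold changes in these same libraries, and the sets share libraries. The count therefore cannot be set against that rate. In T cells with interleukins these were Btk in WT replicate 1 (9.65 CPM), Cd37 in WT replicate 3 (44 CPM), Cd24a and Pax5 in Y665F replicate 3 (385 and 47 CPM), Fcgr2b in Y665F replicate 2 (17.3 CPM, the lowest), and Mzb1 and Siglecg in Y665H replicate 3 (0.347 and 1.25 CPM). The Y665H sets counted replicate 4, the sum of replicates 1 and 2, as a value, and in the set of Mzb1 the median was 0 CPM. In spleen they were Pou2f2 in WT replicate 2 (66.2 CPM) and in Y665H replicate 1 (69.7 CPM).

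Fcgr2b had fold changes of opposite sign in Y665F spleen and Y665F T cells. Every Y665F spleen library was below every WT spleen library (log2 fold change -0.22, adjusted p = 0.0393 by edgeR's test), by as little as 73.0 against 73.2 CPM, and this change lost the threshold in 11 of 19 alternatives, and every Y665F T-cell library with interleukins was above every WT T-cell library (1.84). The difference between the tissues was not tested.

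The CD4+ cells titled WT entered no comparison above. In them Cd24a had a mean of 40.1 CPM of the library total with N642H (11.8 to 54.5, n = 3) and 36.6 CPM with Y665F (20.5 to 58.9, n = 3), against 2.19 to 2.59 CPM in the 3 libraries with the empty vector. With STAT5B it was between 4.08 and 17.3 CPM (mean 12.6), and with Y665H between 2.33 and 3.29 CPM (mean 2.79). In null cells Cd24a did not pass with either vector.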

How the results depend on the processing

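Of 68 member changes past the adjusted p, 17 stayed past it, in the same direction, in every alternative run: 10 of 31 in spleen, 3 of 26 in T cells and 4 of 11 in null CD4+ cells. With 1 library left out, the members past the adjusted p numbered 6 to 21 for spleen Y665H against WT, 6 to 10 for Y665F against WT and 4 to 12 for Y665F against Y665H, and the call of Cd24a in Y665H against WT 0 to 1. In T cells they numbered 1 to 22 for Y665F against WT, 5 to 25 for Y665F against Y665H and 1 to 13 for interleukins against none, by both rules. In null cells they numbered 0 to 2 for STAT5B, 2 to 5 for N642H and 2 to 7 for Y665F, and at 2-fold 0 to 1, 2 to 3 and 2 to 5. Causes of these shifts were not tested. Shares of all genes in the refits are not given, so the shifts cannot be read as particular to the members.

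Fitting the compared groups alone gave 3 for spleen Y665H against WT, 1 and 9 for T-cell Y665F against WT and Y665H, and 0 for STAT5B. T-cell Y665F against WT gave 8 with RLE factors, 8 with library totals, 9 without a filter and 14 with DESeq2; interleukins against none gave 7 without a filter and 7 with DESeq2. DESeq2 gave 2 for STAT5B, and 9 and, at 2-fold, 5 for Y665F in null cells.

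Replicate numbers were checked for pairing with genes past edgeR's filterByExpr. Deviations were correlated above 0.1 in 4 of 13 same-numbered spleen pairs, 5 of 21 T-cell pairs and 28 of 30 null CD4+ pairs. Numbers were taken to pair libraries only where every pair was above 0.1, and the lowest null CD4+ pair was at -0.167. By that rule no experiment was taken as paired. If the null CD4+ numbers mark shared cultures, the fit with the block would be the better one. Of the null CD4+ libraries 14 of 15 correlated best with their own number, against 2 of 16 in spleen and 1 of 15 in T cells, which is a hint from the data and not from the design. In null cells this depends on the genes used. With genes of at least 10 reads it was 18 of 30 and with a mean of at least 5 CPM 30 of 30; both were tried later, with block counts in view. The replicate block gave 8, 5 and 3 members past the adjusted p in the 3 spleen comparisons, with no call at 2-fold (0) for Y665H against WT, 1 for T-cell Y665F against WT, 1 for interleukins against none, 5 for STAT5B, 11 for N642H and 12 (7 at 2-fold) for Y665F in null cells.

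Alternatives chosen after seeing the data left out both T-cell libraries high in B-cell genes, which gave 0 calls against WT and 3 against Y665H, with medians of -0.31, 0.19 and, for interleukins against none, -0.50; Pax5 against WT became -0.73 and Cd22 against Y665H -0.0266. Leaving out spleen Y665H replicate 1 with groups fitted alone gave 15 for Y665F against Y665H. TMM factors without called genes moved no spleen count by over 1.5 times.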
